A study of Mus musculus with 20 samples.

Results

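The epithelial and mesenchymal identity of the MC38 colorectal liver metastases (CRLM) was described by 10 of the 54532 genes counted. The 7 epithelial genes were Epcam, Krt8, Krt18, Krt19, Krt7, Cdx2 and Vil1, and the 3 mesenchymal genes were Vim, Cdh2 and Zeb1. They were chosen by name, and both count tables listed all of them. MC38 is a colon adenocarcinoma cell line of C57BL/6 origin, and the study grew it in livers of wild-type C57BL/6 mice after injection of 1000000 cells by the spleen and portal vein. The tissue series held normal liver of mice given saline on day 0 (con, 2 libraries), tumor-free liver far from the tumor on day 12 (L-con, 1 library), low-content tumor on day 9 (Lt, 2 libraries), medium-content tumor on day 9 (Mt3, 2 libraries) and on day 11 (Mt2 and Mt1, 2 libraries each), and high-content tumor on day 12 (Ht, 3 libraries). From Mt2 metastases on day 11, F4/80+ and CD11b+ cells were pulled with microbeads, with 3 libraries of each. Per the Methods each tissue group but L-con came from 2 livers, the metastasis samples were aliquots of liver and tumor around a metastasis, and Ht was mostly tumor. The labels give the mice of the tissue series as male and the Methods as female. No label says whether the sorted libraries came from separate mice, so their p-values measure only the spread between those libraries.

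Epithelial cells are held together by adhesion molecules and carry intermediate filaments of keratins. Each filament pairs a type II keratin (Krt8, Krt7) with a type I keratin (Krt18, Krt19). Simple epithelia use Krt8 and Krt18, and these are the keratins of hepatocytes, while Krt7 and Krt19 mark bile duct cells. Epcam is a surface adhesion molecule of most carcinomas and of bile ducts, Cdx2 is the transcription factor that sets intestinal fate, and Vil1 (villin) bundles actin in the microvilli of gut enterocytes. Vim (vimentin) is the filament protein of mesenchymal cells, endothelium and leukocytes. Cdh2 (N-cadherin) is the adhesion molecule that often takes the place of E-cadherin in mesenchymal cells, and hepatocytes carry it too. Zeb1 is a transcription factor that represses epithelial genes by binding E-boxes in their promoters.

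Because E-boxes in promoters are the letters Zeb1 is known for, the promoters of Epcam, of the abundant keratin pair and of Vim are shown first. RefSeq windows of 300 bases were taken on GRCm38.p6 for 7 of the 10 genes. Each ran from 250 bases before to 50 bases after the start of transcription. They are printed 5′ to 3′ on the strand of the gene, and capitals mark CAGGTG or its reverse complement CACCTG. The window of Epcam lies at chr17:87635729-87636028 (plus strand), that of Krt8 at chr15:102004293-102004592 (minus strand), that of Krt18 at chr15:102027966-102028265 (plus strand) and that of Vim at chr2:13574061-13574360 (plus strand).
Epcam: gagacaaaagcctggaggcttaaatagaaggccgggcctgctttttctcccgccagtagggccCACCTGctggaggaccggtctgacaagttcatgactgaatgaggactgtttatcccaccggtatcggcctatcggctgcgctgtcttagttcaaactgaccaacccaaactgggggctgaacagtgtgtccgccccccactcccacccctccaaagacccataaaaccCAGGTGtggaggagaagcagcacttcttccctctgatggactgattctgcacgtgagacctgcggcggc
Krt8: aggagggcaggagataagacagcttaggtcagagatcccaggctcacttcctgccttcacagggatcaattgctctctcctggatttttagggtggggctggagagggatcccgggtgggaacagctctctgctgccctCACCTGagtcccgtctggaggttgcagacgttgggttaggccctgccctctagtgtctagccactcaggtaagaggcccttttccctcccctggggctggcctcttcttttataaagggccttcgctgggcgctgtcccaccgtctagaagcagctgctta
Krt18: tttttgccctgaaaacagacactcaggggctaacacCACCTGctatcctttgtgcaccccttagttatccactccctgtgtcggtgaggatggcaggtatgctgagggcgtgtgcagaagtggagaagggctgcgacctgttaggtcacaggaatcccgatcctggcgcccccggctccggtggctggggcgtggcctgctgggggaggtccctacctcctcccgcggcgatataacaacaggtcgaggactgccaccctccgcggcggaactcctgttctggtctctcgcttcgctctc
Vim: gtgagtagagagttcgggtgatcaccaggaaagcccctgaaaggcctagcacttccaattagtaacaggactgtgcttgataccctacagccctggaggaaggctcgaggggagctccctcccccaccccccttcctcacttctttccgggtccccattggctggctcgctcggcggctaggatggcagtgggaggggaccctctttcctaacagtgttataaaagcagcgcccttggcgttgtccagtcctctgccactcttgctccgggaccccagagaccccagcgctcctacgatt
The motif stood in 5 of the 7 windows: 2 times in Epcam, with first letters 187 and 19 bases before the start, and 1 time each in Krt8 (111 bases before), Krt18 (214 bases before), Krt7 (44 bases before) and Vil1 (26 bases after). The windows of Vim and Cdx2 held none. Krt19, Cdh2 and Zeb1 are not among the windows described, so Vim is the only mesenchymal gene here and the 2 kinds cannot be compared. Of 32544 distinct promoter windows of this length in RefSeq, 20.3% held the motif on either strand. A match is a description of letters and says nothing about binding.

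Sequencing gave 16032085 to 18246623 assigned counts per tissue library and 17785496 to 20548370 per sorted library. A gene was taken as not detectable under 3 counts, which is 0.146 to 0.187 CPM (counts scaled to a library of 1000000) and covers counting error only. Since Ht_1 and Ht_3 are described in the Methods as made identical, they entered every fit as 1 summed sample, so Ht had n = 2. Their deposited counts were not identical, with a chi-square per degree of freedom of 30.3 over 15284 genes against 29.1 for Ht_1 and Ht_2 and 13.2 for Ht_2 and Ht_3, so that the pair most alike was not the one named in the Methods, and Krt8 had 1232 counts in Ht_1, 2266 in Ht_3 and 3845 in Ht_2. With Ht as 3 separate samples Krt8, Krt18, Cdh2 and Vim kept their calls in the comparisons with Ht, except that Vim was not called from the medium-content groups to Ht in either fit, and 3 calls were added, those of Vil1 from con to Ht (-2.77, adjusted p = 0.0456) and of Krt19 (-2.09, 0.0340) and Zeb1 (1.00, 0.00135) from Lt to Ht. Levels are given as FPKM scaled by TMM (trimmed mean of M values), which allows comparison between genes. In the tissue table, 13 hepatocyte markers summed to 184773 to 216478 CPM in con and to 3829 to 5955 CPM in Ht, and Lt_1, at 186953 CPM, lay within the range of con. In bulk tissue, fewer cells of a type and less RNA per cell cannot be told apart.

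Krt8 and Krt18 carried nearly all of the epithelial signal, and in tissue the group means of both were lowest in Ht. The pair made up 96.8% to 99.4% of the summed FPKM of the 7 epithelial genes in every tissue library. Krt8 FPKM were 157 and 163 (con), 187 (L-con), 243 and 132 (Lt), 168 and 130 (Mt3), 162 and 129 (Mt2), 314 and 193 (Mt1), and 25.6, 73.4 and 45.4 (Ht). Every Ht library lay below every other tissue library, and Mt1 held the highest mean, 254 ± 85.7 (SD, n = 2). Krt18 followed the same course, with FPKM of 113 and 102 (con), 116 (L-con), 178 and 101 (Lt), 123 and 98.6 (Mt3), 114 and 102 (Mt2), 245 and 141 (Mt1), and 19.9, 51.2 and 34.7 (Ht). In the order of group means, con, Mt2 and Mt3 were neighbours whose ranges overlapped for both keratins. The range of Mt1 overlapped that of Lt and lay above those of con, Mt2 and Mt3, while Ht lay below all. With libraries scaled by total counts Ht_2 was not apart from normal liver, at 108 FPKM of Krt8 beside 102 and 108 in con and at 75.1 FPKM of Krt18 beside 73.4 and 68.2, and Ht still lay below L-con and every other metastasis library.

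The partners of the filament kept a nearly fixed ratio in tissue. Per length, Krt8 was 1.26 to 1.43 times Krt18 in the 11 libraries with metastasis, 1.39 and 1.59 times in con, and 1.61 times in L-con. Their genes lie next to each other on chromosome 15, Krt8 at 101996698-102004482 on the minus strand and Krt18 at 102028180-102032027 on the plus strand (GRCm38), with a gap of 23.7 kb. Krt7 lies 566 kb from Krt8 on the same chromosome. A processed pseudogene, Krt8-ps, held 0 to 18 counts per library, and how reads shared with it were counted is not given in the sources used here.

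Epcam was low in all tissue and rose in the early metastases. Its FPKM were 0.917 and 0.734 (con), 1.30 (L-con), 3.48 and 2.21 (Lt), 1.79 and 1.44 (Mt3), 1.53 and 1.40 (Mt2), 2.58 and 1.86 (Mt1), and 0.819, 0.971 and 0.480 (Ht). The libraries Lt to Mt1 all lay above con, while Ht overlapped con. With libraries scaled by total counts Ht, at 0.726 to 1.42 FPKM, lay above con, at 0.596 and 0.489. The counts behind these levels were 17 to 93 per library.

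The bile duct keratins and the gut genes stood near the floor. Krt19 FPKM were 0.958 and 0.902 (con), 0.761 (L-con), 0.734 and 0.541 (Mt3), 0.896 and 0.629 (Mt2), and 0.417, 0.766 and 0.423 (Ht). It stood out in single libraries, with 4.19 FPKM in Lt_1 against 0.404 in Lt_2 and 1.80 FPKM in Mt1_2 against 0.868 in Mt1_1. Krt7 ranged from 0 to 0.433 FPKM in tissue, with 0 to 47 counts. Krt7 was at 0.146 and 0 FPKM in con, the 0 being the lowest value in tissue, and the highest value was in Lt_1, or in Ht_2 with libraries scaled by total counts.

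Cdx2 was not detected in 19 of 20 libraries. The exception was Mt3_1 with 5 counts, or 0.159 FPKM, and in the others a count of 0 allows up to 3 counts. Vil1 had 0 to 21 counts in tissue and 2 to 4 in Ht. It overlaps Usp37 on the opposite strand, which held 120 to 575 counts per library, and the library kit is not stated to keep strand, so reads of the pair cannot be told apart where they overlap.

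Vimentin rose from con to Ht and was the most abundant of the 10 transcripts in Ht. Tumor content ran with the day over the metastasis groups, from day 9 in Lt and Mt3 to day 12 in Ht, and cannot be told apart from it. Vim FPKM were 12.7 and 5.79 (con), 22.7 (L-con), 71.0 and 135 (Lt), 110 and 141 (Mt3), 183 and 317 (Mt2), 223 and 331 (Mt1), and 355, 399 and 399 (Ht). All metastasis libraries lay above con and L-con, and all Ht libraries above the rest, while neighbouring groups between Lt and Mt1 overlapped except Mt3 and Mt2. Zeb1 had group means in the same order from con through Lt, Mt3, Mt2 and Mt1 to Ht at a far lower level, while L-con lay just below con, with FPKM of 2.65 and 2.35 (con), 2.34 (L-con), 3.05 and 3.33 (Lt), 3.66 and 3.48 (Mt3), 3.95 and 5.60 (Mt2), 4.47 and 5.35 (Mt1), and 5.69, 6.41 and 7.11 (Ht). Within a library, Vim was 2.46 and 4.79 times Zeb1 in con and 56.0 to 62.5 times in Ht.

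Cdh2 ran opposite to the other mesenchymal genes. Its FPKM were 14.0 and 14.8 (con), 15.2 (L-con), 11.4 and 9.70 (Lt), 12.3 and 10.8 (Mt3), 9.47 and 3.36 (Mt2), 7.10 and 3.71 (Mt1), and 0.748, 1.27 and 1.12 (Ht). Cdh2 was above Vim in both con libraries and below Zeb1 in all Ht libraries. Beside albumin (Alb), the main secreted protein of hepatocytes, Cdh2 did not fall. It had 0.824 and 1.03 counts per 1000 Alb counts in con, 0.876 to 2.17 in the libraries from Lt to Mt1, and 3.83 to 4.53 in Ht. This depended on the marker chosen. The log2 fold change from con to Ht was -5.85 for Alb and -3.72 for Cdh2. Over 13 hepatocyte markers it ran from -7.19 to -2.54 with a median of -5.41, so Cdh2 fell more than the least changed marker.

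In each of Lt, Mt3, Mt2 and Mt1 the library numbered 1 had more Krt8, Krt18, Epcam and Cdh2 and less Vim than the library numbered 2. With libraries scaled by total counts the direction turned in Mt2 for Krt8, Krt18 and Epcam and in Lt for Cdh2, and the other pairs kept it. The hepatocyte markers moved with this, with sums of 106437 to 186953 CPM in the libraries numbered 1 and 28187 to 114552 CPM in those numbered 2, each above its partner, and their part in it was not tested.

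The first comparison set normal liver against the low-content metastases of day 9. Vim rose 11.2-fold (log2 fold change 3.48 ± 0.52 SE, adjusted p = 0.00322 by edgeR's quasi-likelihood test) and Epcam rose 3.43-fold (1.78 ± 0.38, adjusted p = 0.0136), each in 2 of 2 Lt samples above both con samples. Thus 1 of 6 epithelial genes tested and 1 of 3 mesenchymal genes were called higher, and none lower, where calls needed an adjusted p of at most 0.05 and at least a 2-fold change. Of all 17187 genes tested, 12.4% were called higher and 0.256% lower. Krt8 (0.23 ± 0.41) and Krt18 (0.38 ± 0.38) did not pass, with adjusted p = 0.728 and 0.526. Krt7 (2.08 ± 0.95, adjusted p = 0.186), Krt19 (1.29 ± 0.87, 0.352), Cdh2 (-0.44 ± 0.44, 0.522), Zeb1 (0.35 ± 0.18, 0.241) and Vil1 (-0.21 ± 1.17, 0.917) did not pass either. Cdx2 passed the filter on low counts in no comparison. The Epcam call was lost without con_1 (adjusted p = 0.0545), without con_2 (0.110) and without Lt_1 (0.0654), whereas Vim was called in each of these. Krt7 was called higher without con_1 (adjusted p = 0.0218), which leaves con_2 with its 0 counts, and with no filter on low counts (0.0228). Markers of other cells were higher in Lt as well, namely 7 of 13 stellate and fibroblast markers, 5 of 13 macrophage markers and 3 of 13 cholangiocyte markers (Spp1, Tspan8 and Bicc1, named after their values were seen), and none was lower. Their sums went from 495 to 664 CPM in con to 1829 to 3357 CPM in Lt for stellate cells and fibroblasts, from 834 to 1163 to 1796 to 2193 CPM for macrophages, and from 392 to 416 to 785 to 798 CPM for cholangiocytes. Most of the cholangiocyte rise was Spp1, which went from a mean of 36.7 CPM in con to 376 CPM in Lt. The cholangiocyte markers not called were 5 positive and 5 negative. The part of these cell types in the rise of Vim and Epcam was not tested.

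Between normal liver and the high-content tumor Krt8, Krt18 and Cdh2 fell and Vim and Zeb1 rose. Vim was 41.5-fold higher (5.37 ± 0.57, adjusted p = 0.000137) and Zeb1 2.53-fold higher (1.34 ± 0.19, adjusted p = 0.000365). Krt8 fell by 1.57 on the log2 scale (SE 0.42, adjusted p = 0.00936), Krt18 by 1.47 (SE 0.39, 0.00849) and Cdh2 fell by 3.72 (SE 0.49, 0.000302). Epcam did not differ detectably (-0.06 ± 0.38, adjusted p = 0.904). The called genes numbered 2 of 6 epithelial (both lower) and 3 of 3 mesenchymal (2 higher, 1 lower), against 25.8% of all genes higher and 24.1% lower. Krt7 (1.57 ± 0.94), Krt19 (-0.68 ± 0.88) and Vil1 (-2.83 ± 1.27) did not pass, with adjusted p = 0.167, 0.513 and 0.0755. Krt7 was called without con_1 (0.00470) and with no filter (0.0368).

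The keratin result depended on the scaling between libraries. TMM set the median log2 fold change of all genes at 0.09 from con to Ht, and scaling by total counts set it at 1.28. On the latter scale Krt8 stood at -0.39 (adjusted p = 0.320) and Krt18 at -0.29 (0.428), both still below the median of all genes, and Epcam stood at 1.13 (0.0250). The sign of Epcam turned with the shift of all genes, and it lay below their median under both scalings. With that scaling the 6 epithelial genes gave 2 calls higher (Epcam and Krt7, the latter at 2.76, adjusted p = 0.0215) and 0 lower. Of all genes tested 51.3% were called higher and 13.1% lower on that scale, and of all genes called 79.7% were higher against 51.7% with TMM. Vim (6.57), Zeb1 (2.53) and Cdh2 (-2.53) were called under both scalings. Without Ht sample 1 the adjusted p of Krt8 was 0.0727 and that of Krt18 was 0.0685.

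From Lt (day 9) to Ht (day 12), the comparison of small and large tumor share, 3 of the 6 epithelial genes tested fell. With total-count scaling none of the 6 was called, beside 36.2% of all genes called higher and 12.1% lower on that scale. Tumor share and day after injection cannot be told apart here. Epcam fell by 1.84 on the log2 scale (SE 0.36, adjusted p = 0.00478), Krt8 by 1.80 (SE 0.42, 0.00947), Krt18 by 1.85 (SE 0.39, 0.00637) and Cdh2 fell by 3.28 (SE 0.48, 0.00303), while Vim rose 3.71-fold (1.89 ± 0.49, 0.0135). Zeb1 rose 1.98-fold (0.99 ± 0.18, adjusted p = 0.00423), just under the fold needed for a call. Called were 3 of 6 epithelial genes (all lower) and 2 of 3 mesenchymal genes (1 higher, 1 lower), beside 11.7% of all genes higher and 20.2% lower. Krt19 (-1.98 ± 0.85), Krt7 (-0.50 ± 0.81) and Vil1 (-2.62 ± 1.25) did not pass, with adjusted p = 0.0860, 0.634 and 0.116. Without Lt_1, whose keratins were high, Krt8 (adjusted p = 0.0795), Krt18 (0.0526) and Vim (0.106) were not called. Without Ht sample 1 the adjusted p was 0.0692 for Krt8, 0.0512 for Krt18 and 0.0525 for Vim, and without Ht sample 2 it was 0.0564 for Vim. Cdh2 and Epcam were called each time a sample was left out, but with total-count scaling Epcam stood at -0.91 (0.0570), Krt8 at -0.87 (0.0496) and Krt18 at -0.92 (0.0312), none past the 2-fold threshold, and 74.9% of all calls were higher against 36.6% with TMM.

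From the mean of the medium-content groups (days 9 and 11) to Ht (day 12), 3 of 6 epithelial genes and 1 of 3 mesenchymal genes were called, all lower. Tumor content and day cannot be told apart in this comparison either. Krt18 fell by 1.75 (SE 0.35, adjusted p = 0.0116), Krt8 by 1.70 (SE 0.37, 0.0162), Epcam by 1.11 (SE 0.30, 0.0322) and Cdh2 by 2.74 (SE 0.43, 0.00861). Of all genes 1.5% were called higher and 13.4% lower. Vim (0.92 ± 0.37, adjusted p = 0.0962) did not pass, and Zeb1 rose 1.46-fold (0.55 ± 0.14, 0.0278), under the fold needed for a call. Krt19 (-0.56 ± 0.71), Krt7 (0.53 ± 0.65) and Vil1 (-1.66 ± 1.11) had adjusted p = 0.574, 0.556 and 0.283. These calls rested on both Ht samples: without either one edgeR called none of the 10 genes and 0 genes in all, though 3760 genes (without Ht sample 1) and 4074 genes (without Ht sample 2) had an unadjusted p under 0.05. The Epcam call was also lost without Mt3_1 (adjusted p = 0.0669), Mt2_1 (0.0512) or Mt1_1 (0.0651) and with total-count scaling (-0.55, 0.167), where Vim (1.43, 0.0286) and Zeb1 (1.08, 0.0167) were called higher and 59.3% of all calls were higher against 10.0% with TMM. The 4 tissue comparisons share con, Lt or Ht samples and are not independent of each other.

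**Figure D1:**
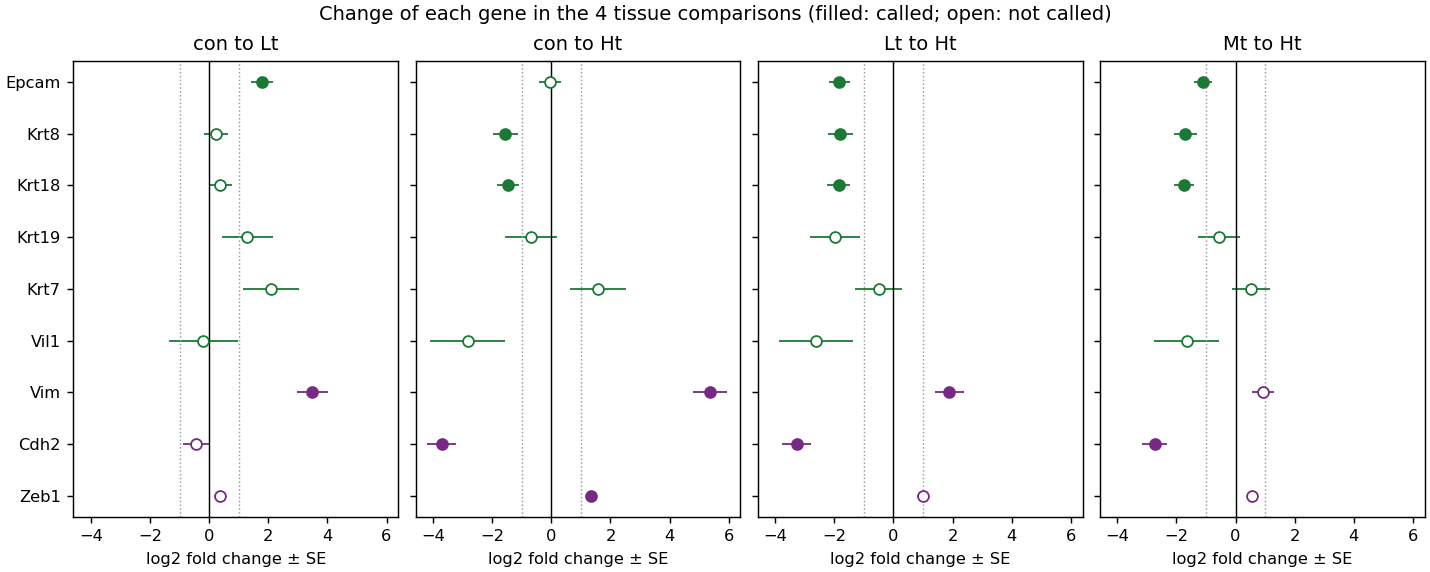
Log2 fold change with its SE (x axis) of each gene (y axis) in 4 comparisons of tissue groups from edgeR, with green for epithelial and purple for mesenchymal genes, filled points for called genes and dotted lines at a 2-fold change. Krt8, Krt18 and Cdh2 lie left of 0 in every comparison with Ht, at -1.57, -1.47 and -3.72 from con to Ht, where Vim lies at 5.37; with total-count scaling Krt8 and Krt18 were not called from con to Ht.

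Ratios within a library do not depend on how libraries are scaled to each other. Within tissue, Krt8 over Vim was highest in con and lowest in Ht, and between them the order was not strict, with a median of 0.646 in Mt2 and 0.997 in Mt1. Per length, Krt8 was 12.4 and 28.1 times Vim in con and 8.25 times in L-con. In the low- and medium-content libraries the pair came close to balance, Krt8 being 3.43 and 0.979 (Lt), 1.53 and 0.923 (Mt3), 0.886 and 0.406 (Mt2), and 1.41 and 0.584 (Mt1) times Vim. In Ht, Vim exceeded Krt8 by 13.9, 5.44 and 8.79 times. Neither con nor Ht overlapped any other group on this ratio, while Lt, Mt3 and Mt1 overlapped each other and Mt2 overlapped only Mt1. Summed over each set, the mesenchymal genes held 7.91% and 9.72% of the FPKM of the 10 genes in con, 16.6% to 58.3% in the libraries from Lt to Mt1, and 76.3% to 88.5% in Ht. Vim was 25.3% and 43.3% of the mesenchymal sum in con, with Cdh2 and Zeb1 as the rest, and 98.0% to 98.2% of it in Ht.

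**Figure D2:**
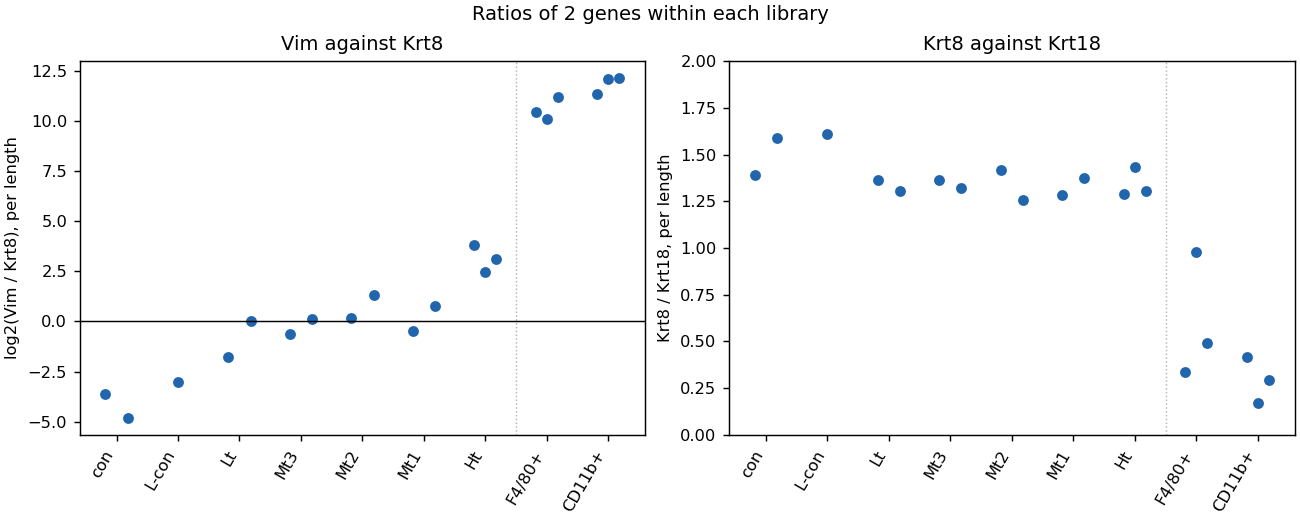
Left, log2 of Vim over Krt8, and right, Krt8 over Krt18, both per gene length within each library (y axes), by group (x axis), with each point a library and the dotted line parting tissue from sorted cells. Vim over Krt8 goes from -4.81 and -3.63 in con to between 2.44 and 3.79 in Ht, whereas Krt8 over Krt18 stays between 1.26 and 1.61 in tissue.

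Of the other epithelial genes more fell than rose. Of 40 other epithelial genes (genes of junctions, desmosomes, epithelial transcription and splicing, and surface proteases), 37 were tested from con to Ht, where 6 were called higher and 19 lower, beside 25.8% and 24.1% of all genes, with a median log2 fold change of -2.13 against 0.09 for all genes. With total-count scaling 8 were higher and 16 lower, beside 51.3% and 13.1% of all genes, with a median of -0.95 against 1.28. Esrp2, an epithelial splicing regulator, fell by 4.80, and the desmosomal cadherin Dsg2 fell by 4.14. Klf5, a transcription factor of gut crypts, rose by 5.29 on the log2 scale from 0.226 to 9.22 CPM, the desmosomal plakophilin Pkp3 rose by 3.90 and P-cadherin (Cdh3) by 3.60. E-cadherin (Cdh1), named here after its values were seen, fell by 3.75 (SE 0.57, adjusted p = 0.000532). From con to Lt, 6 of these genes were called higher and none lower, near the 12.4% of all genes called higher, and their median equalled that of all genes at 0.10. From Lt to Ht 2 were called higher and 23 lower, beside 11.7% and 20.2% of all genes, with a median of -2.25 against -0.01 for all genes.

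Of 24 genes of the intestinal epithelium 11 were tested, and from con to Ht 2 were called higher and 6 lower, beside 25.8% and 24.1% of all genes, with a median log2 fold change of -2.16. Among those called higher was Cdh17 (LI-cadherin), with 0 counts in both con libraries and at least 10.4-fold higher in Ht against the floor of 3 counts per library. Cdh17 also rose from Lt to Ht, by 3.67 on the log2 scale (adjusted p = 0.00696). The largest falls were those of Car1, a carbonic anhydrase of colon and of red blood cells, which fell by 8.17, of the goblet cell peptide Tff3, which fell by 7.16, and of the fatty acid binding protein Fabp2, which fell by 5.03. With total-count scaling 4 of the 11 genes were higher and 5 lower, beside 51.3% and 13.1% of all genes on that scale. Krt20, Phgr1, Slc26a3, Guca2a, Isx and Reg4 were at 0 in all Ht libraries. More of the list was at 0 in normal liver: of the 24 genes, 10 and 11 had any count in the con libraries, against 15, 15 and 13 in the Ht libraries.

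Of the other mesenchymal genes, 20 of 37 tested were called higher from con to Lt and none lower, beside 12.4% and 0.256% of all genes, with a median log2 fold change of 1.81 against 0.10 for all genes, and from con to Ht 29 were higher and 2 lower, with a median of 2.87. Of all genes 25.8% were called higher and 24.1% lower from con to Ht. With total-count scaling 19 of the list were higher from con to Lt and 32 from con to Ht, and none was lower. On that scale 11.6% of all genes were higher and 0.128% lower from con to Lt, and 51.3% and 13.1% from con to Ht. Twist2, a transcription factor of mesenchymal cells, had 0 counts in con and was at least 10.9-fold higher in Lt and at least 33.3-fold higher in Ht against the floor of 3 counts per library. Prrx1, a homeobox factor of mesenchyme, rose by 4.43 from con to Lt and by 6.11 from con to Ht, where it reached 76.7 CPM. From Lt to Ht, 14 rose and 1 fell, beside 11.7% and 20.2% of all genes, with a median of 0.96 against -0.01 for all genes. With total-count scaling 26 rose and 0 fell, beside 36.2% and 12.1% of all genes. Twist1 rose by 1.96 and Snai1 by 1.82, both repressors of epithelial genes. From Mt to Ht only Twist1 was called (1.06, adjusted p = 0.0415), beside 1.5% of all genes higher and 13.4% lower. With total-count scaling 15 genes of the list were called, all higher, beside 15.1% of all genes higher and 10.3% lower. The genes that fell from con to Ht were Nt5e, a surface nucleotidase, and the myosin light chain kinase Mylk.

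**Figure D3:**
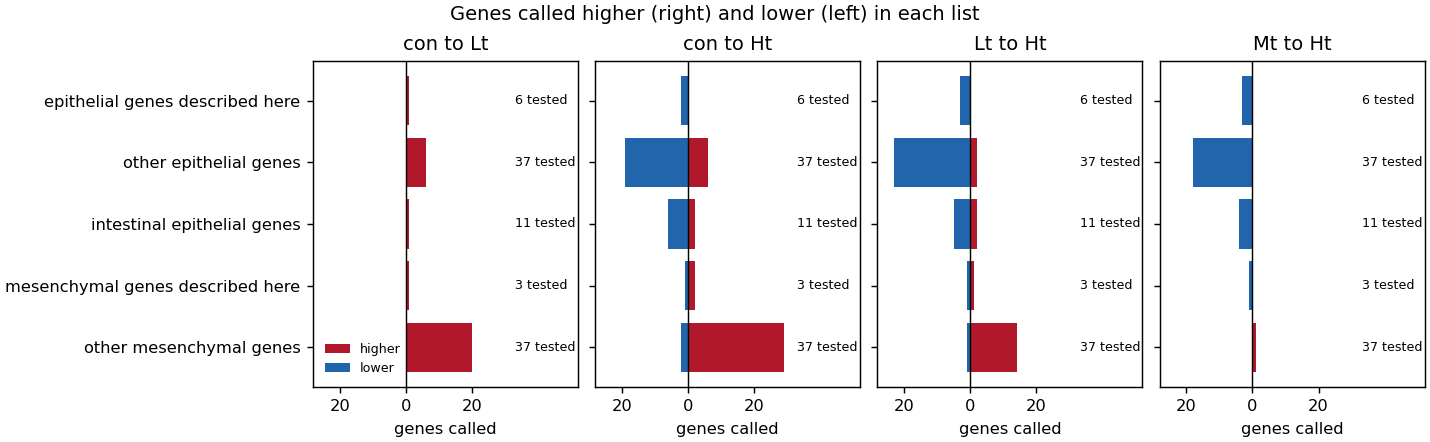
Number of genes called higher (red, right of 0) and lower (blue, left of 0) in 5 lists (y axis) for 4 tissue comparisons, with the number tested at the right. From con to Ht, 19 of 37 other epithelial genes were lower and 29 of 37 other mesenchymal genes higher.

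Markers of other cells moved with these genes. From con to Ht all 13 hepatocyte markers fell, by 2.54 to 7.19 on the log2 scale, which is more than Krt8 and Krt18 fell. Krt8 had 2.25 and 2.75 counts per 1000 Alb counts in con and 33.7 to 53.6 in Ht. With total-count scaling 12 of the hepatocyte markers were called lower. Of 13 stellate and fibroblast markers 8 rose and 3 fell, and their sum went from 495 to 664 CPM in con to 6582 to 8390 CPM in Ht, beside the rise of Vim. Of 13 macrophage markers 7 rose and 4 fell, with sums of 834 to 1163 CPM in con and 2118 to 2691 CPM in Ht. Of 13 endothelial markers 6 fell and none rose, and of 13 cholangiocyte markers 2 rose and 5 fell, with a median of 0.086 beside 0.094 for all genes. Of all genes 25.8% were called higher and 24.1% lower in this comparison. With total-count scaling these counts were 3 higher and 4 lower for endothelium, 7 and 4 for cholangiocytes, 10 and 1 for stellate cells and fibroblasts, and 9 and 1 for macrophages, beside 51.3% of all genes called higher and 13.1% lower on that scale. All 13 proliferation markers rose, from a sum of 21.1 to 32.1 CPM in con to 1597 to 1647 CPM in Ht. No gene of these 6 lists was at 0 in all libraries of con or of Ht. The part of each cell type in the levels of Vim, Zeb1, Cdh2 and the keratins was not tested.

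F4/80 and CD11b are surface proteins of macrophages and of myeloid cells at large, and of the 10 genes only Vim was abundant in the sorted cells. Vim was as high as in their source tissue, with 219, 224 and 243 FPKM in F4/80+ cells, 257, 287 and 272 in CD11b+ cells, and 183 and 317 in Mt2. Its log2 difference from Mt2 was -0.13 ± 0.36 (adjusted p = 0.773) in F4/80+ cells and 0.12 ± 0.36 (0.795) in CD11b+ cells, and the ranges of Mt2 enclosed both populations. Zeb1 was lower in the sorted cells, at 1.07, 1.21 and 1.22 FPKM in F4/80+ and 1.16, 1.03 and 0.733 in CD11b+ cells, below every tissue library. It fell by 2.03 (SE 0.19, adjusted p = 1.02e-06) against Mt2 in F4/80+ cells, and fell by 2.29 (SE 0.20, 3.39e-07) in CD11b+ cells.

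Keratins and Cdh2 were almost absent from the sorted cells. Krt8 had 4 to 8 counts per F4/80+ library and 2 to 4 per CD11b+ library, and in pooled scaled counts Mt2 held 913 times (95% exact interval 577 to 1541) and 1871 times (985 to 4093) as much. For Krt18 the ratios were 364 (246 to 563) and 373 (253 to 577). Cdh2 had 3 counts in all in the F4/80+ libraries and 2 in the CD11b+ libraries, for ratios of 917 (313 to 4452) and 1410 (390 to 11654). Krt19 was 11.5 times (5.20 to 30.0) and 27.5 times (8.91 to 138) higher in Mt2. These intervals cover counting error only.

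Epcam and Krt7 behaved otherwise in the sorted cells. Epcam had 35, 31 and 65 counts in CD11b+ cells, or 0.832, 0.657 and 1.89 FPKM, and 0, 7 and 16 counts in F4/80+ cells, or 0, 0.172 and 0.396 FPKM. Against Mt2 it fell by 2.92 (SE 0.70, adjusted p = 0.00278) in F4/80+ cells but stood at -0.39 ± 0.63 (0.616) in CD11b+ cells. Between the sorted populations the groups did not overlap, and the difference (-2.59 ± 0.88) did not pass, with an adjusted p of 0.398 from edgeR. Krt7 was at 0.100 to 0.164 FPKM in F4/80+ and 0.110 to 0.220 in CD11b+ cells, beside 0.104 and 0.123 in Mt2, so that the ranges overlapped, and its log2 differences from Mt2 were 0.16 ± 0.71 (adjusted p = 0.866) and 0.67 ± 0.71 (0.433). Vil1 (-1.30 ± 1.23, 0.392, and -0.69 ± 1.18, 0.639) did not pass either.

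In all, 4 of 6 epithelial and 2 of 3 mesenchymal genes tested were called lower in F4/80+ cells than in Mt2 tissue, and 3 of 6 and 2 of 3 were called lower in CD11b+ cells, none being higher. Of 18407 genes tested, 17.2% were called higher and 25.2% lower in F4/80+ cells, and 17.6% higher and 26.3% lower in CD11b+ cells. The sorted cells have a count table of their own, so the kind of sample and any difference between the tables cannot be told apart. Between CD11b+ and F4/80+ cells edgeR called 0 of the 4 genes tested (Epcam, Krt7, Vim and Zeb1), with 0.00701% of 14263 genes called higher and 0.0701% lower and 1503 genes at an unadjusted p under 0.05. Only Epcam of the 4 had such a p, and DESeq2 called 0 of the 10 genes as well. Vim (-0.30 ± 0.16, adjusted p = 0.496), Zeb1 (0.20 ± 0.21, 0.661) and Krt7 (-0.57 ± 0.42, 0.576) were the other tests.

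The identity of the sorted cells was checked by their markers. The 13 macrophage markers summed to 15491 to 19070 CPM in F4/80+ cells and 13390 to 20537 CPM in CD11b+ cells, against 2091 to 2200 CPM in Mt2 tissue. In F4/80+ cells 11 of them were called higher than in Mt2 and 0 lower, and in CD11b+ cells 9 were called higher and 3 lower, the latter being Clec4f (-2.89), Cd5l (-2.74) and Vsig4 (-2.05), known from the resident macrophages of the liver. Hepatocyte markers summed to 256 to 531 CPM in the sorted libraries. Endothelial markers summed to 250.1 to 399.8 CPM in F4/80+ cells, overlapping the 359 to 611 CPM of Mt2, with 7 of 13 called lower, and to 161 to 175 CPM in CD11b+ cells, with 10 called lower. Vim is also a gene of endothelium, and the part of these cells in its level was not tested. Of the other epithelial genes, 3 were called higher and 27 lower in F4/80+ cells than in Mt2, and 4 higher and 28 lower in CD11b+ cells, out of 38 tested. Of all genes 17.2% and 25.2% were called higher and lower in F4/80+ cells, and 17.6% and 26.3% in CD11b+ cells. Spint1, a protease inhibitor, was higher in both, by 3.49 and 3.80, as was the membrane protease St14, by 1.84 and 1.65. Of 37 other mesenchymal genes 4 were higher and 19 lower in F4/80+ cells and 4 higher and 21 lower in CD11b+ cells. Zeb2, the paralog of Zeb1, was higher in both, by 2.21 and 1.56, and so was the matrix protein Tgfbi, by 3.31 and 3.16.

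**Figure D4:**
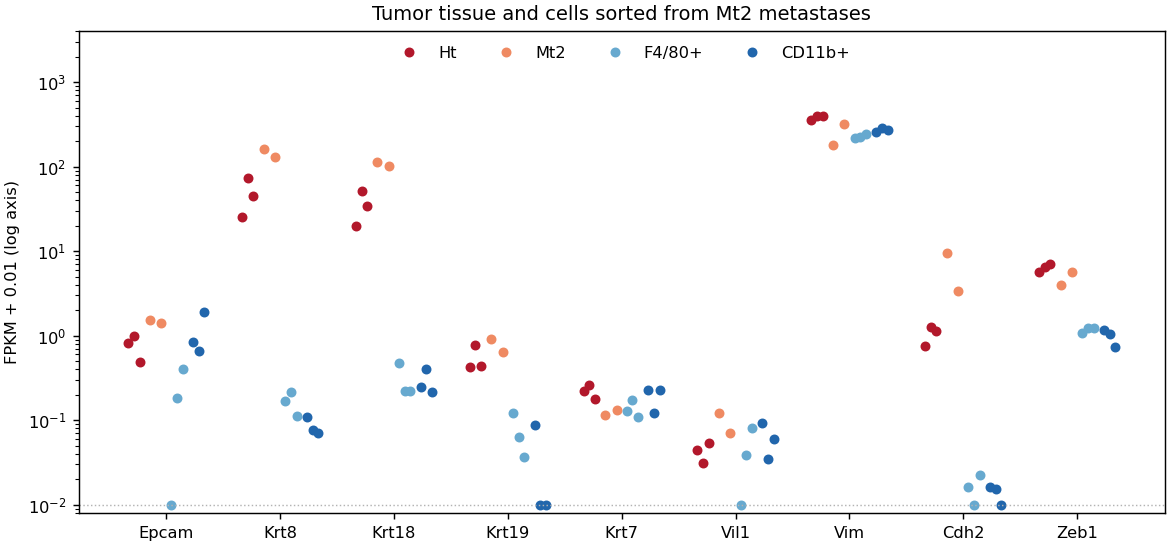
Level of 9 genes (x axis) in Ht and Mt2 tissue and in F4/80+ and CD11b+ cells sorted from Mt2 metastases, as FPKM plus 0.01 on a log axis, with each point a library and the dotted line at 0 FPKM. Vim lies at 183 to 399 FPKM in all 4 groups, while Krt8, Krt18 and Cdh2 are well below tissue in both sorted populations.

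The genes that ran closest to each member over the 13 tissue samples were taken by Pearson's r of log2(CPM + 1), as a description over samples that share tumor content. For Vim these were Myo5a (r = 0.9996), Plp2 (0.999) and Myof (0.999), for Zeb1 Psip1 (0.994), Meis2 (0.994) and Rbfox2 (0.993), and for Cdh2 Slc25a23 (0.999), Hfe2 (0.999) and Ptpn3 (0.998). Krt8 and Krt18 were each other's closest gene (r = 0.990), and the adhesion molecule Cxadr was in the top 3 of both (0.940 and 0.916), with Alcam (0.922) for Krt8 and Gm19619 (0.918) for Krt18. Epcam ran with the chemokine Cxcl1 (0.910), Gm16170 (0.901) and Slc13a5 (0.901). The low-count genes had weaker matches: Krt19 with a gene named Ccl21a (0.928), Prom1 (0.911) and Slc36a2 (0.910), Krt7 with Foxj1 (0.886), Tspan8 (0.864) and Arhgef5 (0.843), and Vil1 with Scn8a (0.908), Neu3 (0.884) and Hid1 (0.873). Among the members, Vim and Zeb1 ran together (r = 0.905) and Zeb1 ran against Cdh2 (r = -0.915), whereas Vim and Krt8 were at -0.339.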

How the data were processed

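Bulk RNA was sequenced from 14 tissue libraries and 6 libraries of sorted cells. The authors deposited raw counts per gene, whole numbers that are not normalized, in 1 table for tissue and 1 for sorted cells. The submitters' processing notes name CASAVA, HISAT2 2.0.5, featureCounts 1.5.0-p3 and the builds GRCm38 and mm10, and the annotation release is not given in the sources used here. RNA was extracted with TRIzol and libraries were made with the NEBNext Ultra kit.

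Counts were tested in R 4.3.3 with edgeR 4.0.16 (TMM, filterByExpr, quasi-likelihood test, Benjamini-Hochberg adjustment over all genes tested), with all groups of a table sharing 1 estimate of the spread. A call needed an adjusted p of at most 0.05 and a log2 fold change of at least 1. Ht_1 and Ht_3 were summed, which left 13 tissue samples and 19 in the joint fit of tissue and sorted cells. Mt stands for the mean of Mt3, Mt2 and Mt1. Levels are CPM divided by the deposited gene length in kb (FPKM), with TMM over 20 libraries, and errors are SD over samples. Levels scaled by total counts alone were added after seeing the data. DESeq2 1.42.0, total-count scaling and leaving out samples were among the alternatives, and the test was tried on simulated counts. All 10 genes are named. Of the other lists, counts and at most 3 genes in each direction are given, being the largest changes among called genes whose groups did not overlap and whose mean log2 CPM was at least 0. The 3 genes most like each member by Pearson's r are also named. Counts from 16032085 to 20548370 per library put the floor of 3 counts at 0.146 to 0.187 CPM. The members and lists were chosen with earlier results of these data known. One gene of the intestinal epithelial list is counted with the list and is not reported by name here.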

Additional observations from a re-analysis of the deposited data

How the results depend on the processing

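Of 669 values recomputed under alternatives, 597 kept their direction and their side of the threshold. From Lt to Ht, total-count scaling called 3 of the 10 genes and 8297 genes in all, and no filter on low counts called 8 of the 10. From Mt to Ht, 3888 genes were called with no fold threshold and 4360 with total-count scaling. Between CD11b+ and F4/80+ cells the number of genes called was 6 with total-count scaling, 242 with no filter, 303 by DESeq2 and 78 with the replicate block. The causes were not tested. With the replicate number as a block, no result on the 10 genes crossed its threshold. The numbers did not pair the groups that were compared: the correlation of same-numbered deviations ran from -0.249 to -0.043 where con or Ht was 1 of the groups and from -0.121 to 0.0139 in sorted cells. Among Lt, Mt3, Mt2 and Mt1, which were not tested against each other, it ran from 0.137 to 0.525. An exchanged pairing of con and Lt, chosen after seeing the data, called 2 of the 10 genes and 2390 in all.

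Leaving out 1 sample at a time, where a lone sample is assumed to vary like the other groups, the number of the 10 genes called ran from 1 to 2 (con to Lt), 3 to 6 (con to Ht), 2 to 7 (Lt to Ht) and 0 to 5 (Mt to Ht). All genes called ran from 735 to 2284 (con to Lt), 2786 to 5960 (Lt to Ht), 0 to 3549 (Mt to Ht) and 0 to 136 (CD11b+ to F4/80+). Krt7 ran from 1.05 to 8.40 (con to Lt) and 0.56 to 7.90 (con to Ht). Directions of values that had not passed the test turned as follows. From con to Lt, Krt8 ran from -0.28 to 0.60, Krt18 from -0.095 to 0.72, Krt19 from -1.20 to 2.16 and Vil1 from -1.23 to 6.82, and Vil1 was at 0.10 with total-count scaling, 0.21 with the replicate block and 0.19 with the exchanged pairing. From con to Ht, Epcam ran from -0.36 to 0.22 and Vil1 from -3.85 to 4.203. There Epcam was at 1.13 and Krt19 at 0.50 with total-count scaling, and Epcam was at 0.061 with no filter. From Lt to Ht, Krt19 ran from -2.85 to 0.52 and Krt7 from -0.99 to 0.24, and Krt7 was at 0.44 with total-count scaling. Against Mt2, Vim ran from -0.48 to 0.36 and Krt7 from -0.024 to 0.35 in F4/80+ cells, and Vim from -0.22 to 0.61 in CD11b+ cells. Depth limits Krt7, Krt19, Vil1 and Cdx2, which had few counts in most libraries.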

Other observations

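E-cadherin (Cdh1), looked at after its values were seen, was at 9.80, 12.5 and 7.41 CPM in CD11b+ cells and at 1.75, 2.66 and 2.57 CPM in F4/80+ cells. The groups did not overlap, and the log2 difference was -2.14 ± 0.28 (SE) with an adjusted p of 0.0529 by edgeR, which missed the threshold. Of the 14 other epithelial genes tested between the sorted populations, Cdh1 among them, 9 stood lower and 5 higher in F4/80+ cells, 6 had an unadjusted p under 0.05, edgeR called 0 and DESeq2 called 4. Of all 14263 genes tested 10.5% had such a p with edgeR, and DESeq2 called 1.18% of the 25772 genes it tested.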
